A study of Homo sapiens with 6 samples.

Results

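The globin genes encode the protein chains of haemoglobin and were followed here in K562 cells, a line derived from a human chronic myeloid leukaemia. All probe sets annotated with any of the 10 genes HBA1, HBA2, HBB, HBD, HBE1, HBG1, HBG2, HBM, HBQ1 and HBZ were taken, which gave 19 of the 54613 probe sets other than controls, and covered every listed gene. The 10 genes are among 21357 that the annotation names. Of the 19 probe sets, 10 name a single globin. The other 9 are shared, 6 by HBA1 and HBA2 and 3 by HBG1 and HBG2, and cannot tell the copies apart. The suffix _x_at, which marks probe sets whose probes may also match related sequences, was carried by 12 of the 19.

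Haemoglobin is a tetramer that pairs chains of the alpha family with chains of the beta family, each holding a haem group. In human development the embryonic chains zeta (HBZ) and epsilon (HBE1) give way to alpha (HBA1, HBA2) and the fetal gamma chains (HBG1, HBG2), and around birth beta (HBB) and the minor delta chain (HBD) replace gamma. K562 cells are known for making embryonic and fetal haemoglobins, and for being pushed towards the erythroid path by several inducers, so globin transcripts serve in this line as a common readout of erythroid maturation.

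The cells were nucleofected with the small interfering RNA (siRNA) labelled RNAi8 or with a scrambled control RNA (scrRNA), each at up to 200 nM, and received all-trans retinoic acid (ATRA) or the DMSO control 24 h later. Each of 3 experiments, which the labels number and the design text calls independent, gave 1 siRNA array and 1 scrambled array; ATRA was the agent of experiments 1 and 3, DMSO that of experiment 2. There were thus 2 siRNA arrays with ATRA, 1 siRNA array with DMSO, 2 scrambled arrays with ATRA and 1 scrambled array with DMSO. All cells were of 1 line, all were nucleofected, and 1 siRNA was used, so effects through its target and effects of its sequence on other transcripts cannot be told apart. The labels do not name the target. The series title names PRAME, a repressor of retinoic acid receptor signalling. The time from ATRA to harvest is not given in the sources used here.

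Values are log2 expression after RMA, a method that summarises the probes of a probe set and puts all arrays on a common distribution. A probe set with a mean below 5.99, the median of all probe sets, is called dim here and was not shown to be above background, and the others are called bright. The PRAME probe set stood at 12.13, 12.14 and 12.10 on the siRNA arrays of experiments 1, 2 and 3, against 13.00, 12.99 and 12.70 on the scrambled arrays, so that 58.4% of the signal was left (limma adjusted p = 0.0435 with the experiment as a block, 1 without). Of 12 erythroid and megakaryocytic progenitor markers, 9 had a probe set of their own. Of those, 8 were bright, among them the transferrin receptor gene TFRC at 13.34 and the Rh-associated glycoprotein gene RHAG at 11.77, while the scavenger receptor gene CD36 was dim. None of the 9 passed a test. By mean 3 were lower with the siRNA. In all 3 experiments 4 were higher with the siRNA and 1 was lower, against 12.3% and 11.3% of all probe sets. RHAG was among the 4, higher by 0.18, 0.12 and 0.37 in experiments 1, 2 and 3. In both ATRA experiments 6 of the 9 were lower than with DMSO, against 36.0% of all probe sets. They were lower by -0.45 to -0.06 in experiment 1 and -0.57 to -0.01 in experiment 3. Of the markers of other cell types, bright ones were 2 of 7 for T and NK cells, 2 of 4 measured for B cells, 2 of 8 for monocytes and granulocytes, 3 of 6 for stroma and 3 of 5 for epithelium. Of all 54613 probe sets 27398 were bright, so a bright marker is not by that shown to be expressed. Markers in these lists far above the median of all probe sets, named after their values were seen, were EPCAM at 11.54, KRT19 at 10.34, CD3D at 10.08 and LYZ at 9.73. The median ATRA minus DMSO difference of these lists ran from -0.11 to -0.00 and the median siRNA difference from -0.01 to 0.11, and none of their genes passed a test. Single genes differed more, from -1.26 for CD3D to 0.44 for EPCAM between experiments 3 and 2. The part of any of these markers in the globin values was not tested. The arrays of experiment 3 stood apart. The 3' probe set of actin exceeded the 5' probe set by 2.98 and 3.36 log2 units there (siRNA and scrambled array), against 0.63 to 0.92 on the other 4, and that of GAPDH by 1.20 and 0.74, against 0.03 to 0.08. Whether this gap had a part in the globin values of experiment 3 was not tested, and values are given with and without that experiment.

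Upstream sequence was matched for 2 of the 10 genes in the RefSeq promoter table (GRCh38.p14), HBD and HBM. They are shown as the globins with an entry there, 1 from each family. The signal of HBM was dim, so its sequence does not stand for the alpha family as a whole. Each run covers the 250 bases before the annotated start, 5′ to 3′ on the gene's strand. HBD lies on the minus strand at chr11:5234484-5234733 and HBM on the plus strand at chr16:165728-165977. Capitals mark short matches to TATAA or ATAAA (forms of the TATA box), to CCAAT (the box of that name), to CACCC (the box bound by KLF1 and related factors) and to GATAA (the core bound by GATA factors), on either strand.
HBD: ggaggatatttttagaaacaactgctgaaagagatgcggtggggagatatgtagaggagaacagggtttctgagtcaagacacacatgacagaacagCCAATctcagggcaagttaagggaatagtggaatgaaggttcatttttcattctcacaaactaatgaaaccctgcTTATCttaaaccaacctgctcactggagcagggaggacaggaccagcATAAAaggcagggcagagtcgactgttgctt
HBM: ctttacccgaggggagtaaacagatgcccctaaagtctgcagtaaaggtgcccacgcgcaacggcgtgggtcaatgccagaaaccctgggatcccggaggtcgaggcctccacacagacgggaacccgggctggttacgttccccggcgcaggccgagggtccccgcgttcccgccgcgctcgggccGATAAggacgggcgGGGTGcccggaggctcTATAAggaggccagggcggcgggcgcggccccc
The delta globin promoter held ATAAA from -31 to -27, GATAA on the opposite strand from -78 to -74 and CCAAT from -153 to -149, counted back from the start. The mu globin promoter held TATAA from -33 to -29, CACCC on the opposite strand from -49 to -45 and GATAA from -63 to -59. No marked match overlaps another. Such short strings are common. Among 35116 windows of the same length, TATAA stood in 18.9%, ATAAA in 32.7%, CCAAT in 32.0%, CACCC in 54.7% and GATAA in 20.4% (either strand). A match describes the letters and is not a shown binding site.

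The first comparison set the siRNA array of each experiment against its scrambled partner. The alpha family, which is encoded on chromosome 16, was lower on the siRNA array in nearly every pair. All 6 probe sets shared by HBA1 and HBA2 were lower with the siRNA in all 3 experiments, with mean differences of -0.33 to -0.23, which leaves 79.6% to 85.4% of the scrambled signal. HBZ and HBQ1 were also lower in each experiment. In the beta family, encoded on chromosome 11, mean differences ran from -0.15 to 0.12. No globin probe set passed the test in limma with Benjamini-Hochberg adjustment over all 54613 probe sets, with or without the experiment as a block. In bulk RNA, fewer globin-rich cells and less globin RNA per cell cannot be told apart.

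**Figure D1:**
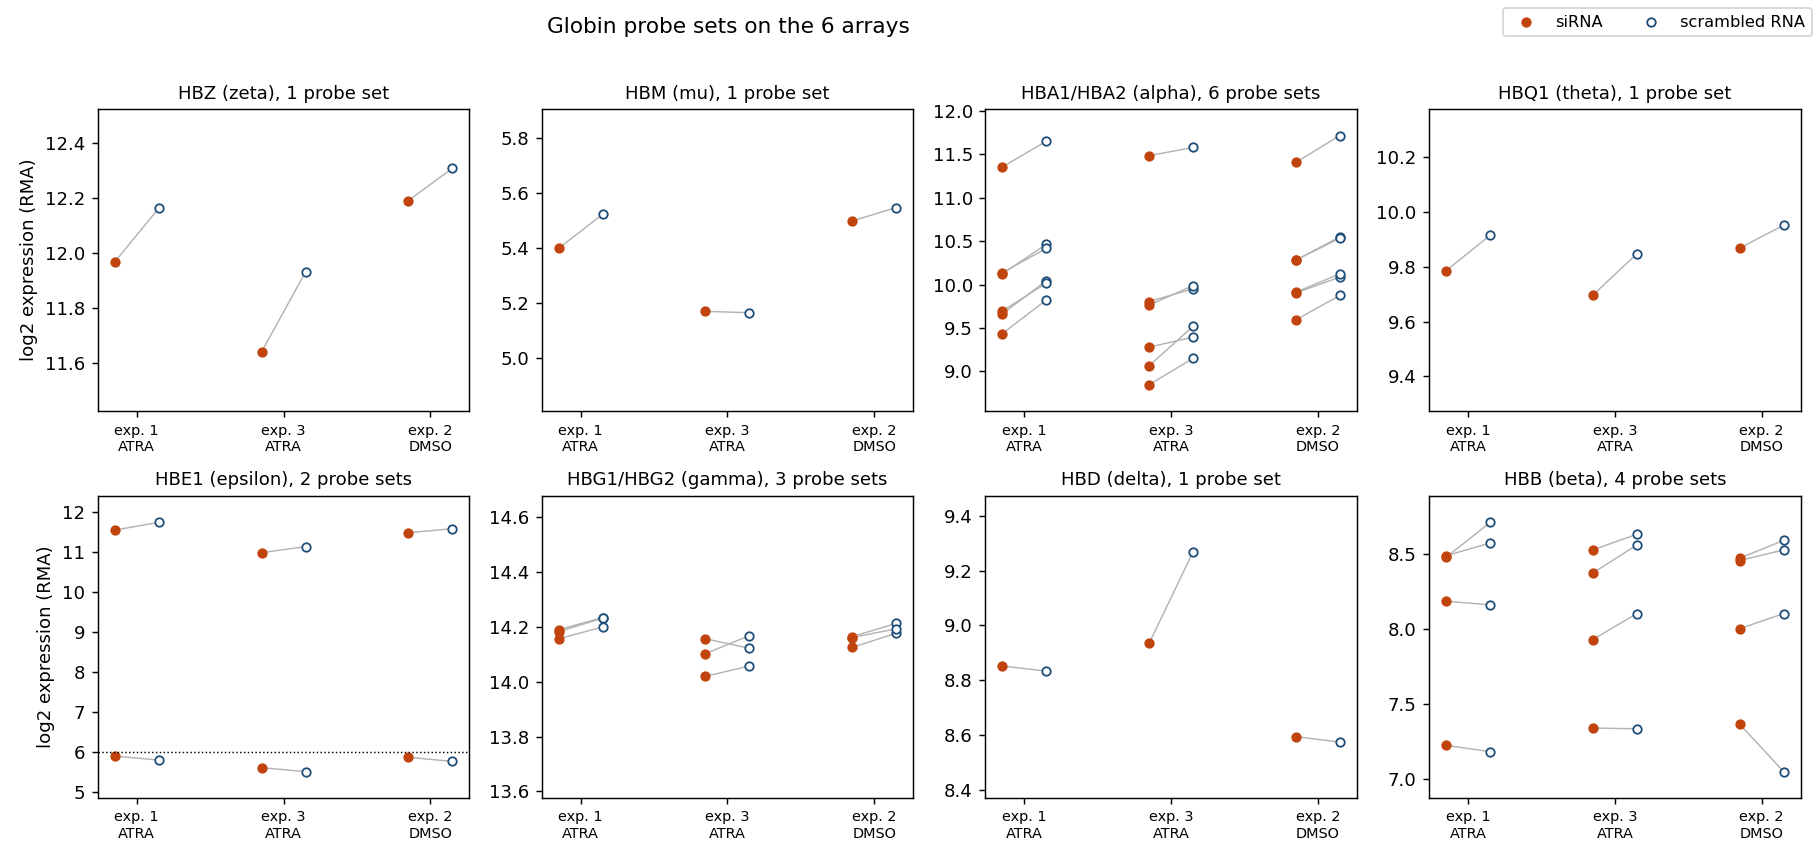
Log2 expression (y axis, scale differs by panel) of each globin probe set on the 6 arrays, with siRNA arrays filled and scrambled arrays open, joined within an experiment; experiments run along the x axis, those with ATRA left of the DMSO one. The dotted line in the HBE1 panel is the 5.99 median of all probe sets, and the mu globin values lie below that level. The filled alpha globin points lie below their open partners in all 3 experiments.

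Zeta globin is the embryonic chain of the alpha family. HBZ had 11.97, 12.19 and 11.64 on the siRNA arrays of experiments 1, 2 and 3, against 12.16, 12.31 and 11.93 on the scrambled arrays. The siRNA array was lower within every experiment, but the groups overlap. Experiment 3 lay lowest in both. The difference was -0.20 ± 0.13 (SE, 95% interval -0.52 to 0.12, adjusted p = 1) without the block. With the experiment as a block the SE was 0.05, the interval -0.31 to -0.09, the unadjusted p 0.00272 and the adjusted p 0.872.

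Alpha globin is made from HBA1 and HBA2, a pair of nearly identical genes whose protein is the same. The shared probe set 214414_x_at had 11.36, 11.41 and 11.49 on the siRNA arrays, against 11.65, 11.72 and 11.58 on the scrambled arrays. Here all siRNA arrays lay below all scrambled arrays. The means were 11.42 ± 0.07 with the siRNA and 11.65 ± 0.07 with the scrambled RNA (SD, n = 3 each), and the difference was -0.23 ± 0.09 (SE, 95% interval -0.45 to -0.02). Its unadjusted p was 0.0394 and the adjusted p 1, and an exact two-sided permutation of the 6 labels gave p = 0.1, the smallest it can reach. Probe set 211699_x_at, with the smallest blocked p of all globin probe sets, had 9.44, 9.59 and 8.85 on the siRNA arrays, against 9.82, 9.88 and 9.15 on the scrambled arrays. Its pairs differed by -0.39, -0.28 and -0.30, while its groups overlapped through the low values of experiment 3. With the block the difference was -0.33 ± 0.05 (SE, 95% interval -0.44 to -0.21, unadjusted p = 2.21e-04, adjusted p = 0.753), and without it the SE was 0.24. The other 4 shared probe sets had pair differences of -0.45 to -0.12. The 6 are 6 views of the same pair of transcripts, not 6 replicates.

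Theta (HBQ1) and mu (HBM) are minor genes of the same cluster whose chains are not known in a working haemoglobin. HBQ1 had 9.79, 9.87 and 9.70 on the siRNA arrays, against 9.91, 9.95 and 9.85 on the scrambled arrays, so that each siRNA array was below its partner and the groups overlapped slightly. The pair differences were -0.13, -0.08 and -0.15. HBM was dim on every array, at 5.40, 5.50 and 5.17 with the siRNA against 5.52, 5.55 and 5.16 with the scrambled RNA, and its differences of -0.12, -0.05 and 0.01 are differences in signal alone.

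Epsilon globin, the embryonic chain of the beta family, was seen by a bright and a dim probe set that went opposite ways. The bright HBE1 probe set 205919_at had 11.56, 11.49 and 10.99 on the siRNA arrays, against 11.75, 11.59 and 11.14 on the scrambled arrays. It was lower within each experiment, by -0.19, -0.10 and -0.15, and experiment 3 was the lowest in both groups. The dim HBE1 probe set 217683_at stood at 5.51 to 5.90 and was higher with the siRNA by 0.10, 0.11 and 0.10.

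Gamma globin, the fetal chain, gave signals at the top of the array's range. The 3 probe sets shared by HBG1 and HBG2 read 14.02 to 14.19 on the siRNA arrays and 14.06 to 14.23 on the scrambled arrays, while the highest value of any probe set on an array was 14.27 to 14.29. Their pair differences ran from -0.07 to 0.03. Whether the scale is compressed at this end was not tested.

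Delta and beta globin are the adult chains. HBD had 8.85, 8.59 and 8.93 on the siRNA arrays, against 8.83, 8.57 and 9.27 on the scrambled arrays. Its pairs differed by 0.02 and 0.02 in experiments 1 and 2 and by -0.33 in experiment 3, so its mean of -0.10 rests on experiment 3 and was 0.02 without it. HBB had 4 probe sets, all bright, and all but 1562981_at carried the suffix _x_at. How far related globins add to the signal of those with the suffix was not tested. Probe set 211696_x_at stood at 8.48, 8.47 and 8.53 with the siRNA, against 8.71, 8.59 and 8.63 with the scrambled RNA, and 217232_x_at at 8.49, 8.45 and 8.37, against 8.57, 8.53 and 8.56. In both probe sets all siRNA arrays were below all scrambled arrays, by means of -0.15 ± 0.09 and -0.11 ± 0.09 (SE, adjusted p = 1 in limma). Probe set 209116_x_at differed by 0.02, -0.10 and -0.17. The last HBB probe set, 1562981_at, differed by 0.04, 0.32 and 0.00, so the HBB probe sets disagreed in sign.

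**Figure D2:**
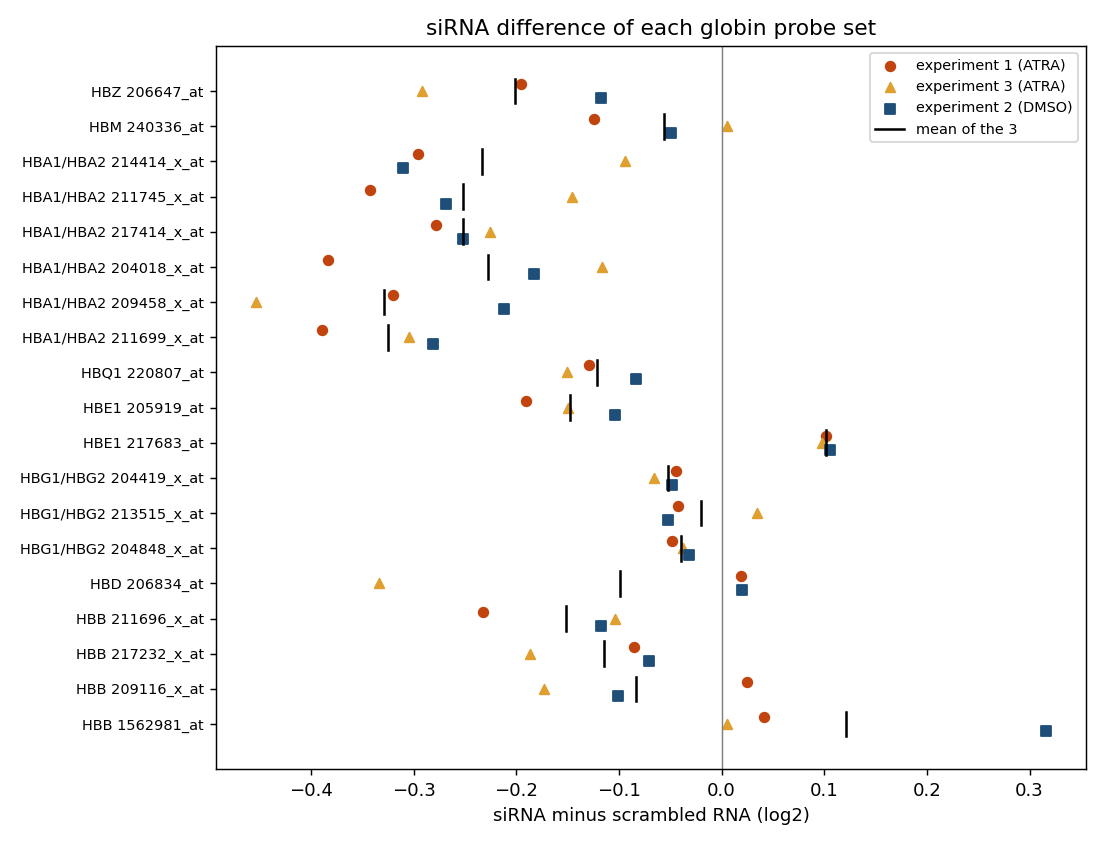
Difference in log2 expression between the siRNA and the scrambled array (x axis) in each experiment for the 19 globin probe sets (y axis); black ticks are the means of the 3 experiments. The alpha globin ticks lie between -0.33 and -0.23, and those of the gamma probe sets between -0.05 and -0.02.

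Counted over the family, 13 of 19 globin probe sets were lower with the siRNA in all 3 experiments and 2 were higher in all 3. Of all probe sets tested, 11.3% were lower in all 3 and 12.3% higher, and among bright ones 13.3% were lower. Of the 13, 8 were among the 9 probe sets of the alpha family and 5 among the 10 of the beta family. In 3 globin probe sets all siRNA arrays lay below all scrambled arrays, as they did in 1.65% of all probe sets. The median difference over the 19 was -0.12, against 0.00 over all probe sets, and it was -0.13, -0.10 and -0.15 in experiments 1, 2 and 3. Without experiment 3, 15 of 19 were lower in both remaining experiments, against 20.3% of all probe sets. In limma 11 then had an unadjusted p below 0.05, all lower, where 3.98% of all had one and 1.72% were lower. Treatment and experiment coincide without experiment 3, so that fit is one with the experiment as a block. Since several probe sets read the same transcript, these counts describe 8 globins or globin pairs as the annotation names them. Represented by their brightest probe set, 6 of those 8 were lower in all 3 experiments.

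The unadjusted tests showed the same side. Without the block, 1 globin probe set had p below 0.05, against 1.2% of all probe sets, and it was lower, as were 0.531% of all. With the experiment as a block, 10 of 19 had an unadjusted p below 0.05, against 5.27% of all probe sets. All 10 were lower, against 2.44% of all probe sets that were lower at that level. These 10 were HBZ, the 6 of HBA1 and HBA2, HBQ1, the bright probe set of HBE1 and 211696_x_at of HBB. The test over all probe sets called 0 globin probe sets in limma without the block, where 0.0% of all were called, and 0 with it, where 0.00183% were called, the single call being PRAME. The adjusted p of the globin probe sets ran from 0.753 to 1 over all settings of this comparison. At a mean difference of -0.2 or below, a limit chosen after the values were seen, lay 7 of the 17 bright globin probe sets and 1.7% of all bright probe sets. These 7 were HBZ and the 6 of HBA1 and HBA2, which read the same pair of transcripts. The lowest difference in the beta family was -0.15.

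**Figure D3:**
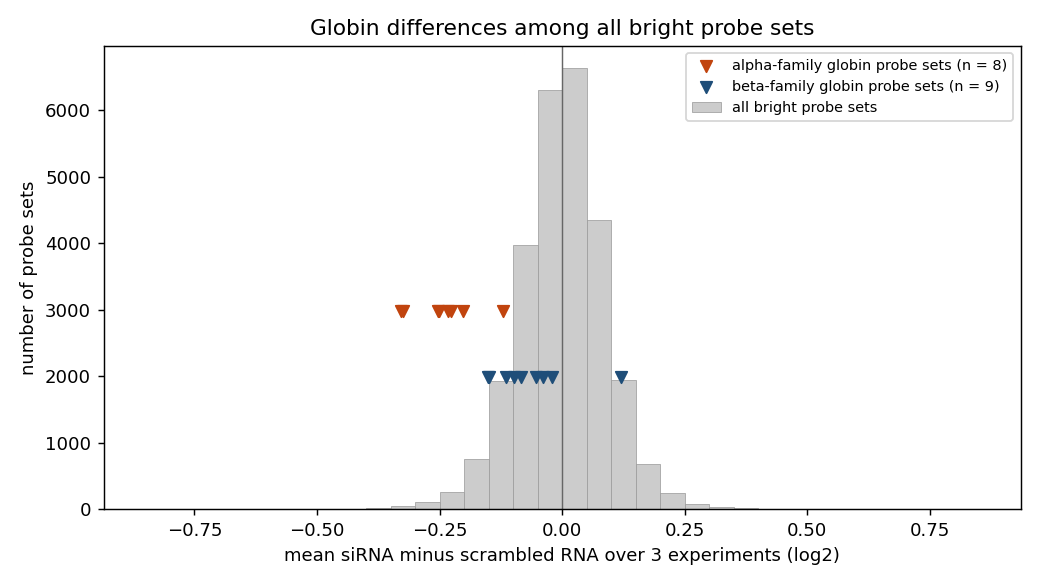
Histogram of the mean siRNA minus scrambled difference (x axis, log2) of all 27398 bright probe sets (y axis, number), with the 8 bright alpha-family and 9 bright beta-family globin probe sets as triangles at an arbitrary height. The alpha-family triangles all lie left of 0, from -0.33 to -0.12, and those of the beta family between -0.15 and 0.12.

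Whether globin transcripts differed between ATRA and DMSO was asked on the mean of the siRNA and the scrambled array of each experiment, 2 ATRA experiments against 1 DMSO experiment. All 9 probe sets of the alpha family were lower in both ATRA experiments than in the DMSO experiment, by -0.18 to -0.06 in experiment 1 and by -0.74 to -0.03 in experiment 3. HBD, in the beta family, stood higher in both, by 0.26 and 0.52. No globin probe set passed the test on the 3 experiment means (limma, smallest adjusted p = 0.995), in which 0.0% of all probe sets were called and 0.835% had an unadjusted p below 0.05.

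With ATRA zeta globin had a mean level of 12.07 (experiment 1) and 11.78 (experiment 3), and with DMSO one of 12.25. Both ATRA experiments were below the DMSO experiment, and the difference was -0.32 ± 0.23 (SE, 95% interval -1.07 to 0.42). For alpha globin, 5 of the 6 shared probe sets were lower by -0.16 to -0.11 in experiment 1 and by -0.74 to -0.53 in experiment 3. The sixth, 214414_x_at, was lower by -0.06 and -0.03, so the probe sets of these genes disagreed in size. HBQ1 differed by -0.06 and -0.14, and the dim HBM by -0.06 and -0.36.

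The beta family divided. The bright HBE1 probe set stood at 11.65 in experiment 1 and 11.07 in experiment 3, against 11.54 in experiment 2, so that the ATRA experiments lay on either side of the DMSO one. The gamma probe sets differed by 0.02 to 0.03 in experiment 1 and by -0.14 to -0.01 in experiment 3, at the top of the array's range. HBD had 8.84 and 9.10 in experiments 1 and 3, against 8.58 in experiment 2. It was thus above the DMSO experiment in both, as were 29.9% of all probe sets and 33.9% of bright ones. Its difference was 0.39 ± 0.27 (SE, adjusted p = 0.995 in limma on experiment means). The HBB probe sets differed by -0.00 to 0.12 in experiment 1 and by -0.04 to 0.13 in experiment 3, and 211696_x_at alone among them was higher in both, by 0.06 and 0.05, with a sign that turned under quantile normalization (mean -0.01).

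**Figure D4:**
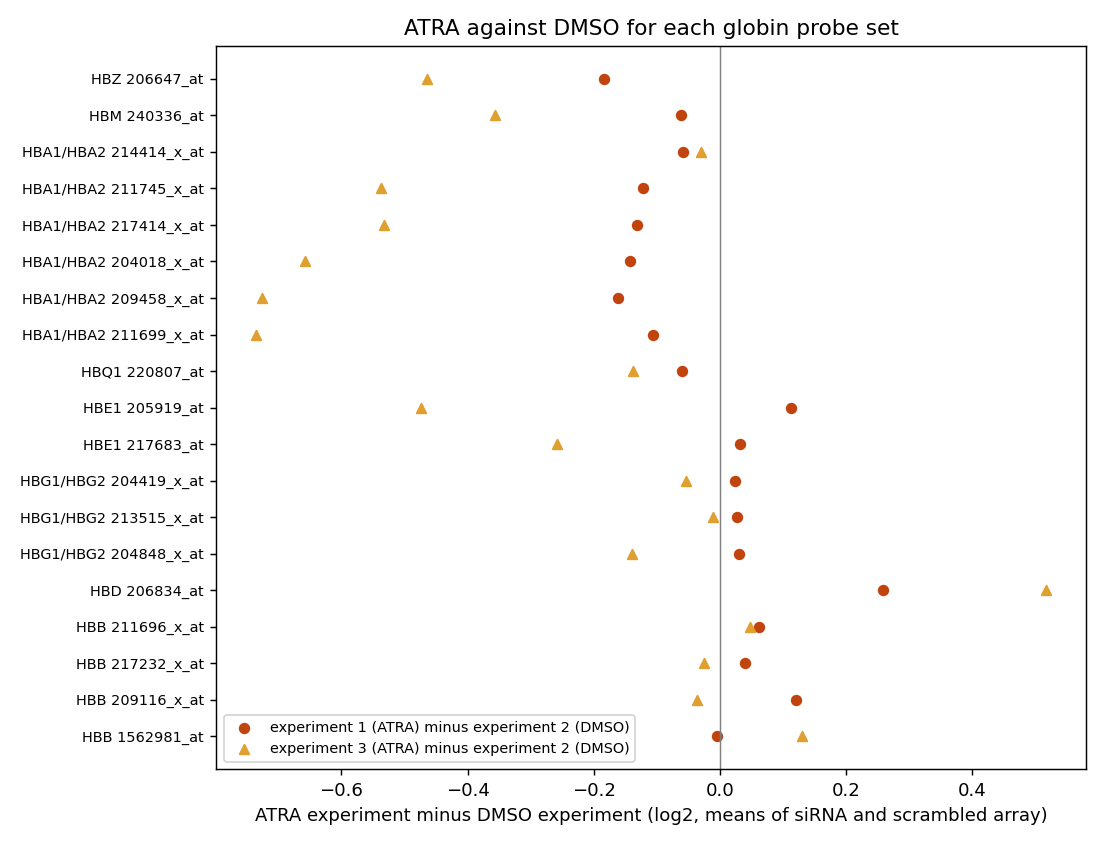
Difference in log2 expression between each ATRA experiment and the DMSO experiment (x axis; means of the siRNA and the scrambled array) for the 19 globin probe sets (y axis). Experiment 3 lies further from 0 than experiment 1 for most alpha-family probe sets, down to -0.74, and HBD is right of 0 in both.

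In total 9 of 19 globin probe sets were lower in both ATRA experiments, against 36.0% of all probe sets and 32.2% of bright ones, and 2 were higher in both, against 29.9% and 33.9%. The largest differences were those of experiment 3, from -0.74 to 0.52, against -0.18 to 0.26 in experiment 1. Some probe sets lay further from DMSO in experiment 1, among them 214414_x_at of HBA1 and HBA2 and 211696_x_at of HBB. The actin and GAPDH gaps of experiment 3 also stood apart, and their part in these values was not tested. Experiments 3 and 1 were each set against experiment 2 in limma, with the spread pooled from the siRNA and scrambled pairs within all 3 experiments. That spread does not measure variation between experiments, to which the treatment was given. Experiment 3 had 10 of 19 globin probe sets past an adjusted p of 0.05, 9 lower and HBD higher. Of all probe sets, 29.0% were called there and 12.7% were called as lower. Experiment 1 called 0 of 19, where 0.247% of all probe sets were called and 8.38% had an unadjusted p below 0.05. HBD was the 1 globin probe set among them (limma, unadjusted p = 0.0366, adjusted p = 0.548). The median over the globin probe sets was -0.00 for experiment 1 and -0.14 for experiment 3, against -0.00 and -0.02 over all probe sets. The treatment was given to whole experiments, so ATRA and the experiment cannot be told apart.

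The last comparison took the mean siRNA difference of the ATRA experiments minus that of the DMSO experiment. For HBZ the siRNA arrays differed from their partners by -0.24 with ATRA and -0.12 with DMSO. The gap between the treatments was -0.13 (95% interval -1.02 to 0.77). For alpha globin this difference ran from -0.17 to 0.12 over the 6 probe sets. The furthest from 0 was the HBB probe set 1562981_at, which had 0.02 with ATRA, 0.32 with DMSO and a gap of -0.29 (95% interval -0.92 to 0.34). No globin probe set passed (limma, 0.0% of all called), and 0 of 19 had an unadjusted p below 0.05, against 1.29% of all probe sets (2.8% with the experiment as a block, where 0 of 19 passed). With 1 DMSO experiment the intervals are wide, and they do not show that the siRNA difference was alike under both treatments.

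Genes that act on globin expression or supply its haem were counted in the same way. Of 30 globin regulators, with the alpha-chain chaperone AHSP counted among them, 0 passed the siRNA test in either fit. By mean 10 were lower, as were 26116 of all 54613 probe sets, and the median difference was 0.02. In all 3 experiments 3 were lower and 8 higher, against 11.3% and 12.3% of all probe sets. AHSP, which binds free alpha chains, was lower by -0.07, -0.10 and -0.10. KLF1, the factor that drives adult beta globin, was higher by 0.08, 0.13 and 0.31, and BCL11A, the repressor of gamma globin, which was dim, by 0.21, 0.06 and 0.19. In ATRA against DMSO, 0 of the 30 passed. Below DMSO in both ATRA experiments were 9 and above it 11, against 36.0% and 29.9% of all probe sets. LMO2, a bridge in erythroid factor complexes, was lower by -0.45 in experiment 1 and -0.40 in experiment 3. NR2C1, part of an embryonic globin repressor complex, was higher by 0.33 and 0.82, and KLF3 by 0.33 and 0.80.

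Of 14 measured genes of haem synthesis and iron supply, 0 passed either test, 5 were lower with the siRNA by mean and the median difference was 0.03. In all 3 experiments 3 were lower and 3 higher, against 11.3% and 12.3% of all probe sets. Below DMSO in both ATRA experiments was 1 and above it 6, against 36.0% and 29.9%. SLC25A37, the mitochondrial iron importer, was lower by -0.05, -0.21 and -0.24, and CPOX, coproporphyrinogen oxidase, by -0.09, -0.10 and -0.04. ALAS1, the housekeeping first enzyme of the pathway, was higher by 0.03, 0.01 and 0.10. ALAS2, its erythroid form, was lower in both ATRA experiments, by -0.39 and -0.50, whereas FECH, which inserts iron into haem, was higher by 0.21 and 0.69 and BACH1, a haem-sensing repressor, by 0.30 and 0.65.

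The same was done for genes beside the globin clusters and for globins of other tissues. Of 19 measured neighbours, 0 passed either test, 11 were lower with the siRNA by mean and the median difference was -0.01. In all 3 experiments 3 were lower and 1 higher, against 11.3% and 12.3% of all probe sets. Below DMSO in both ATRA experiments were 6 and above it 6, against 36.0% and 29.9%. OR51B5, an olfactory receptor gene 3 protein-coding genes away from the beta cluster, was lower by -0.18, -0.27 and -0.32. TRIM6, further off on the same chromosome, was higher with the siRNA by 0.28, 0.32 and 0.08 and higher in both ATRA experiments by 0.49 and 0.56. MRPL28, 8 genes from the alpha cluster, differed by -0.01, 0.00 and -0.29. OR51M1 and TRIM22 were dim. Cytoglobin (CYGB) differed by -0.00, 0.06 and -0.11 with the siRNA, the nerve cell globin gene NGB by 0.11, -0.06 and 0.12 and the dim myoglobin gene MB by -0.11, 0.17 and -0.03, so none kept 1 side over the 3 experiments.

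The mean profile of the 17 bright globin probe sets, each centred on its own mean, was -0.02, 0.03 and -0.23 on the siRNA arrays of experiments 1, 2 and 3, against 0.15, 0.14 and -0.06 on the scrambled arrays. In this mean each siRNA array was thus below its partner, and experiment 3 lay lowest. The mean weighs probe sets alike, so the 6 of HBA1 and HBA2 count 6 times. By experiment means, experiment 3 lay below experiment 2 in 14 of the 17, whereas HBD and 1562981_at of HBB were highest in experiment 3. Among 12877 bright genes the nearest profiles over the 6 arrays belonged to GPKOW, EFCAB6, LINC02012, SLU7 and AKAP19, with root mean square differences of 0.02 to 0.03 log2 units.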

How the data were processed

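The 6 arrays were Affymetrix Human Genome U133 Plus 2.0 chips hybridised with total RNA. The deposited values are log2 expression, which the authors made with RMA (BRB-ArrayTools, per the labels' design text). No version or setting is stated in these sources. With 6 arrays, their number sets the precision.

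Of 54675 probe sets, 62 controls were left out. The platform annotation supplied with the series named 1 gene for 41091 probe sets and several for 1801, and 11721 were not listed and are unnamed here. Identical columns were looked for and not found. Linear models were fitted in limma 3.58.1 under R 4.3.3 (eBayes with an intensity trend) over all 54613 probe sets with no filter, Benjamini-Hochberg adjustment and a threshold of 0.05. The siRNA test used 6 arrays with treatment as a covariate (3 residual degrees of freedom), ATRA against DMSO the 3 experiment means (1), and the difference of siRNA effects 4 groups (2), where the lone array of each DMSO group is assumed to share the spread of the ATRA arrays. The fits were tested on simulated data with independent noise and no differences between experiments. That test does not cover the differences between experiments seen here.

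The experiment numbers pair the arrays. Deviations from the RNA group means correlated at 0.703, 0.772 and 0.879 within experiments 1, 2 and 3 across probe sets. Between siRNA and scrambled arrays of experiments 1 and 2 they correlated at 0.530 and 0.594. With experiment 3 on 1 side the values between experiments ran from -0.785 to -0.693. The labels mark independent experiments. A blocked fit by experiment is an alternative.

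Named genes were all globin probe sets, up to 3 genes of each list by smallest p in each comparison, and the 5 nearest profiles. Each list gene was represented by its brightest single-gene probe set. The marker lists serve as a check of the cell line and are given as counts and medians. Members and lists were chosen with earlier results of these data known. The promoter elements searched are described in the text.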

Additional observations from a re-analysis of the deposited data

How the results depend on the processing

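Settings tried were the experiment as a block, leaving out dim probe sets, no intensity trend, arrays centred on their medians, quantile normalization, 1 probe set per gene, and leaving out experiments or arrays. No globin probe set passed in the siRNA comparison under these settings. None passed in the difference of siRNA effects under the settings that were tested there, which do not include leaving out experiments or arrays. Leaving out a single array without the block breaks a pair, so differences between experiments enter those values.

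For the siRNA comparison the number of all probe sets called was 1 with the experiment as a block, and 0 to 1 when experiments or arrays were left out. Without experiment 3 it was 1, and there the fits with and without the block are the same model, since treatment and experiment coincide. The block changed no call of a globin probe set. The median over the globin probe sets was -0.15 without dim probe sets and ran from -0.16 to -0.090 when experiments or arrays were left out. The number lower in all 3 experiments was 15 of 19 after quantile normalization, against 13.7% of all probe sets. After centring it was 13 of 19, against 12.5%. With 1 probe set per gene it was 6 of 8, a drop that comes from the smaller number counted. These counts, and their counterparts for ATRA, were added after seeing the data. The sign turned when arrays were left out for HBM (-0.16 to 0.047), the bright HBE1 probe set (-0.32 to 0.031), 204848_x_at of HBG1 and HBG2 (-0.088 to 0.012) and HBD (-0.21 to 0.043, and 0.019 without experiment 3 with the block).

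For ATRA against DMSO the calls over all probe sets were 2 with the experiment as a random block and 1 with all arrays and no block, neither in a globin. Experiment 1 against 2 gave 135 and experiment 3 against 2 gave 15838, with 10 globin probe sets. The spread then comes from the pairs within all 3 experiments and does not measure variation between experiments. The number below DMSO in both ATRA experiments was 8 of 19 after centring, against 29.4% of all probe sets. After quantile normalization it was 10 of 19, against 35.1%. With 1 probe set per gene it was 4 of 8, and the share over all genes was not counted. Signs turned between experiments 1 and 3 for HBE1 (205919_at -0.47 to 0.11, 217683_at -0.26 to 0.032), HBG1 and HBG2 (204419_x_at -0.054 to 0.023, 213515_x_at -0.011 to 0.027, 204848_x_at -0.14 to 0.030) and HBB (217232_x_at -0.025 to 0.039, 209116_x_at -0.036 to 0.12, 1562981_at -0.0042 to 0.13). They also turned for 204419_x_at after centring (0.0108) and quantile normalization (0.0108), and under quantile normalization for 211696_x_at, 217232_x_at and 209116_x_at of HBB (-0.0061, -0.051 and -0.013).

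For the difference of siRNA effects the median was -0.050 with no setting changed, -0.035 after centring and -0.094 after quantile normalization. With no setting changed 14 of 19 lay below 0, as did 27178 of all 54613 probe sets. After centring 10 of 19 did. With values added after seeing the data and no test, the median was -0.017 without experiment 1 and -0.045 without experiment 3. Signs turned after centring for HBM (0.0047), 217683_at of HBE1 (0.0094) and 204419_x_at and 204848_x_at of HBG1 and HBG2 (0.0082 and 0.0033). After quantile normalization they turned for 211745_x_at and 217414_x_at of HBA1 and HBA2 (-0.013 and -0.039), 217683_at (0.0054), 204419_x_at and 204848_x_at (0.010 and 0.0066) and 209116_x_at of HBB (-0.018). The causes were not tested.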
